A study of Mus musculus with 30 samples.

Results

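Messenger RNA of the brain of mice labelled Csa-/- was compared between 12 months and 45 days of age. The comparison took the 5 columns of counts at each of these ages, 10 of the 30 columns of the series, chosen by their labels alone. The series also holds Csa-/- brain at 24 months and wild-type (WT) brain at 45 days, 12 months and 24 months. All mice were housed alike under a light and dark cycle, fed freely and killed by an overdose of xylazine and ketamine, and their frozen brains were pulverised for RNA. Strain, sex and the number of mice behind a library were not stated, and the labels put every column in 1 batch. The labels describe 5 sequencings of each sample, and the 5 columns of an age behaved as repeat runs of 1 library. They were therefore summed, which left 1 library per age: the values below compare these 2 libraries, and no p-value can be given for age in Csa-/- alone.

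The gene Csa, also called Ercc8, encodes a protein that acts at RNA polymerase stalled at damaged DNA. There it helps to recruit the machinery of transcription-coupled repair. Loss of this function in people gives Cockayne syndrome, in which myelin, neurons and vessels of the brain deteriorate. In the ageing mouse brain, microglia and astrocytes are known to turn on genes of complement, lipid handling and the cytoskeleton, while young brains still express genes of myelin formation and of connective tissue growth at a high level.

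The 45-day library held 14762512 counts and the 12-month library 14598535, from runs of 2659732 to 3242682 counts. A chi-square test of counts between the 5 runs gave a median per degree of freedom of 0.989 within 45 days and 0.955 within 12 months. Between 1 run of each age it was 3.27, with fewer degrees of freedom, so these medians are not on the same scale. The chi-square p was under 0.05 in 10.2% of genes within 45 days, 8.61% within 12 months and 46.7% between the ages. Runs of an age thus spread a little more than counting error alone. Levels are in CPM, TMM-scaled counts relative to library size, and folds are 12 months over 45 days with an exact 95% Clopper-Pearson interval. These intervals, and the floor of 3 counts (0.201 CPM at 45 days and 0.204 CPM at 12 months), cover counting error only. Runs of an age repeat 1 library, so a gap between the runs of both ages says nothing of the spread between mice. Calls of higher or lower required 5 CPM or more in either library and an interval lying wholly beyond 1.5-fold. Neuronal Snap25 (3840 CPM at 45 days and 2466 CPM at 12 months), oligodendrocyte Mbp and astrocyte Gfap were all abundant, as the brain label requires. Snap25 itself met the rule for lower at 12 months, and general neuronal markers form none of the gene lists below. Ercc8 (chromosome 13, 108158731 to 108195364, mm10) had 13.9 CPM at 45 days and 13.1 CPM at 12 months (0.942-fold, 0.770 to 1.15). Its level in WT was 13.5 and 11.3 CPM at the same ages, so the count of this gene was not lower in the libraries labelled Csa-/-. Counts over a whole gene cannot show an interrupted transcript.

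Of 12563 genes at 5 CPM or more, 784 (6.24%) were higher at 12 months and 1009 (8.03%) were lower. The counts of each gene list below are to be read beside these shares. The calls followed exonic length and GC content. In the shortest quartile of genes 16.6% were lower and 2.74% higher, and in the longest quartile 2.42% were lower and 13.7% higher. In the quartile poorest in GC 16.0% were lower and 2.58% higher, and in the richest 2.45% and 10.1%. When each library's smooth trend with length and GC was removed, 386 genes (3.12%) were higher and 407 (3.28%) lower. Of the original calls, 277 higher (35.3%) and 296 lower (29.3%) remained. Counts with the trend removed are therefore given beside the groups within Csa, while the groups' counts against WT below are without that step. The part of length and GC in each difference was otherwise not tested. The 45-day library was often the one that stood apart. Among the 1009 lower genes it had the highest level of all 6 libraries in 938 (93.0%), whereas the 12-month library had the lowest in 539 (53.4%). Among the 784 higher genes the 45-day library was the lowest of 6 in 610 (77.8%) and the 12-month library the highest in 442 (56.4%). These genes were picked by the gap between the same 2 libraries, which favours such extremes in either library. The share over all tested genes was not computed. In RNA from whole brain, fewer cells of a type and less RNA per cell cannot be told apart.

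**Figure D1:**
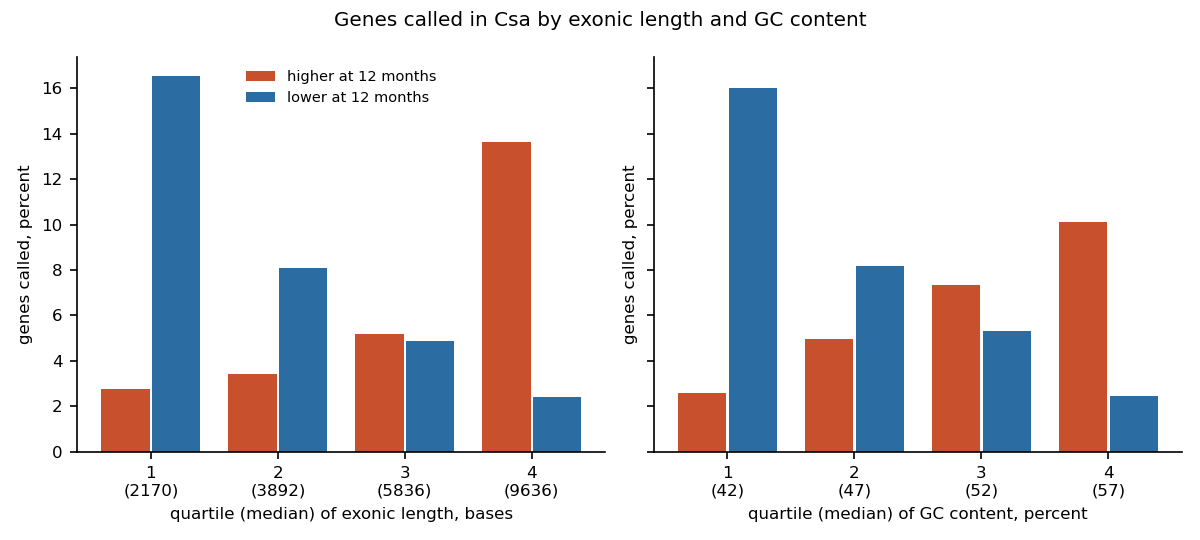
Percent of genes called higher (orange) or lower (blue) at 12 months than at 45 days in Csa brain, by quartile of exonic length in bases (left) and of GC content in percent (right), with each quartile's median in parentheses. Lower calls fall from 16.6% to 2.42% and higher calls rise from 2.74% to 13.7% from the shortest to the longest quartile.

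Complement genes were higher at 12 months. Complement tags synapses and debris for removal by microglia. Of 11 members tested, 5 were higher and none lower, with a median log2 fold of 0.80 against -0.01 over all genes tested. With the length and GC trend removed 7 were higher and the median was 0.94. C4b (chromosome 17, 34728380 to 34743882), an opsonin precursor that binds tagged surfaces, had 23.2, 15.9, 17.6, 21.2 and 14.5 CPM in the 5 runs at 45 days. At 12 months its runs had 138, 133, 138, 131 and 143 CPM. The fold was 7.36 (6.49 to 8.38), and the near-identical C4a may share some of these reads. C3, the central component, went from 0.805 to 5.65 CPM (7.02-fold, 3.81 to 14.1). C1qa, a chain of the initiating C1q complex, went from 30.7 to 54.4 CPM (1.77-fold). Itgb2 and Itgam, which together form complement receptor 3 on microglia, were higher as well, at 2.55-fold and 1.90-fold.

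Genes of activated microglia were higher, while those of resting microglia were mostly not called. Of 16 activated genes tested, 5 were higher and none lower (median log2 fold 0.64), and 9 were higher with the trend removed (0.74). Trem2, a receptor for lipids and cell debris, had 9.16, 9.27, 10.0, 9.41 and 11.7 CPM in the runs at 45 days. Its runs at 12 months had 26.3, 21.3, 34.4, 28.1 and 26.1 CPM, a fold of 2.74 (2.27 to 3.34). Itgax, an integrin of activated myeloid cells, went from 0.470 to 5.72 CPM (12.2-fold, 5.66 to 31.2). Clec7a, a receptor for glucans, went from 1.61 to 7.56 CPM (4.70-fold, 3.00 to 7.64), and Gpnmb, a lysosome-associated membrane protein, from 1.41 to 8.17 CPM (5.80-fold, 3.63 to 9.71). Apoe, the lipid carrier made by astrocytes and activated microglia, was 1.64-fold higher, at 241 and 395 CPM. Spp1 (0.824-fold) and Lpl (0.718-fold), which belong to the same list, were not called. Of 12 resting microglial genes none was higher and 1 was lower, Gpr34 at 0.312-fold, a call that did not hold with the trend removed. P2ry12, the purinergic receptor of resting microglia, had 33.1 and 19.3 CPM (0.585-fold, not called).

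The 250 bases before the start site of Gpnmb and Clec7a are shown as members of this list that were called higher and hold the letters marked. They are RefSeq sequences of GRCm38.p6, 5′ to 3′ on the strand of the gene, from chr6:49036268-49036517 (plus strand) and chr6:129472780-129473029 (minus strand, 1 of its 2 windows). Capitals mark the letters TTTCNNTTT on either strand, the core of the element through which interferon acts.
Gpnmb: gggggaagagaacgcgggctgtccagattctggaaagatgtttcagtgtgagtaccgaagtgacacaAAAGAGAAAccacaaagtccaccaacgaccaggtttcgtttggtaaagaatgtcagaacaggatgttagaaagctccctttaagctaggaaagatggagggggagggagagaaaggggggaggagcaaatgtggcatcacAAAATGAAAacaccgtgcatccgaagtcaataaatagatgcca
Clec7a: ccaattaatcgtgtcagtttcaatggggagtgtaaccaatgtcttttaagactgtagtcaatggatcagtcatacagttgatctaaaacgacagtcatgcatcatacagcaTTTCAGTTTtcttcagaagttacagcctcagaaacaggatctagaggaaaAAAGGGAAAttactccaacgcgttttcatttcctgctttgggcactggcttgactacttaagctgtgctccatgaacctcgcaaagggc

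Each of these windows held 2 matches. The letters occur in 1 or more RefSeq promoter windows of 300 bases, reaching past the start site, in 12.1% of 27025 genes and in 9.01% of the 9962 tested genes with a window. They occur in 4 of the 15 genes of the activated microglial list that have a window. Among the 5 called higher they occur in 3 (Gpnmb, Clec7a and Apoe) and not in Trem2 or Itgax. They occur in 14 of 20 promoters of the interferon-response list, whose genes were not called: of 15 tested none was higher or lower, with a median log2 fold of 0.24. With the trend removed 2 of these 15 were higher. A match is a description of the letters, not a site in use.

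Genes of reactive astrocytes were higher, and so were some of antigen presentation and inflammation. Of 13 astrocyte genes tested, 5 were higher and 1 lower (median log2 fold 0.88, and 0.86 with the trend removed, again with 5 and 1). Gfap (chromosome 11, 102887336 to 102900912), the intermediate filament of astrocytes, had 279, 240, 244, 260 and 253 CPM in the runs at 45 days and 573, 552, 538, 572 and 531 CPM at 12 months. The fold was 2.16 (2.08 to 2.24). Vim, another intermediate filament, was 1.93-fold higher and Serpina3n, a secreted protease inhibitor, 1.84-fold. Lcn2, an iron-binding protein of inflammation, went from 0.604 to 8.72 CPM (14.4-fold, 7.37 to 32.3), with runs of 0 to 1.11 CPM at 45 days and 5.98 to 10.2 CPM at 12 months. The exception was S100a10, a calcium-binding protein, at 118 and 35.9 CPM (0.304-fold, 0.275 to 0.335). Resting astrocyte genes showed no call in either direction among 14 tested, with Aqp4, the water channel, at 235 and 224 CPM. Of 10 antigen-presentation genes 2 were higher (3 with the trend removed), Cd74, the chaperone of MHC class II, at 2.43-fold and the peptide transporter Tap2 at 3.89-fold. Of 19 inflammation genes 3 were higher, Lcn2, the receptor gene Tlr2 and Nfkb2, and Il18 was lower (0.450-fold). The calls of Nfkb2 and Il18 did not hold with the trend removed, where the list had 3 higher and none lower. Lymphocyte markers summed to 19.3 CPM at 45 days and 11.6 CPM at 12 months over 14 genes, 3 of them without a count at each age.

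**Figure D2:**
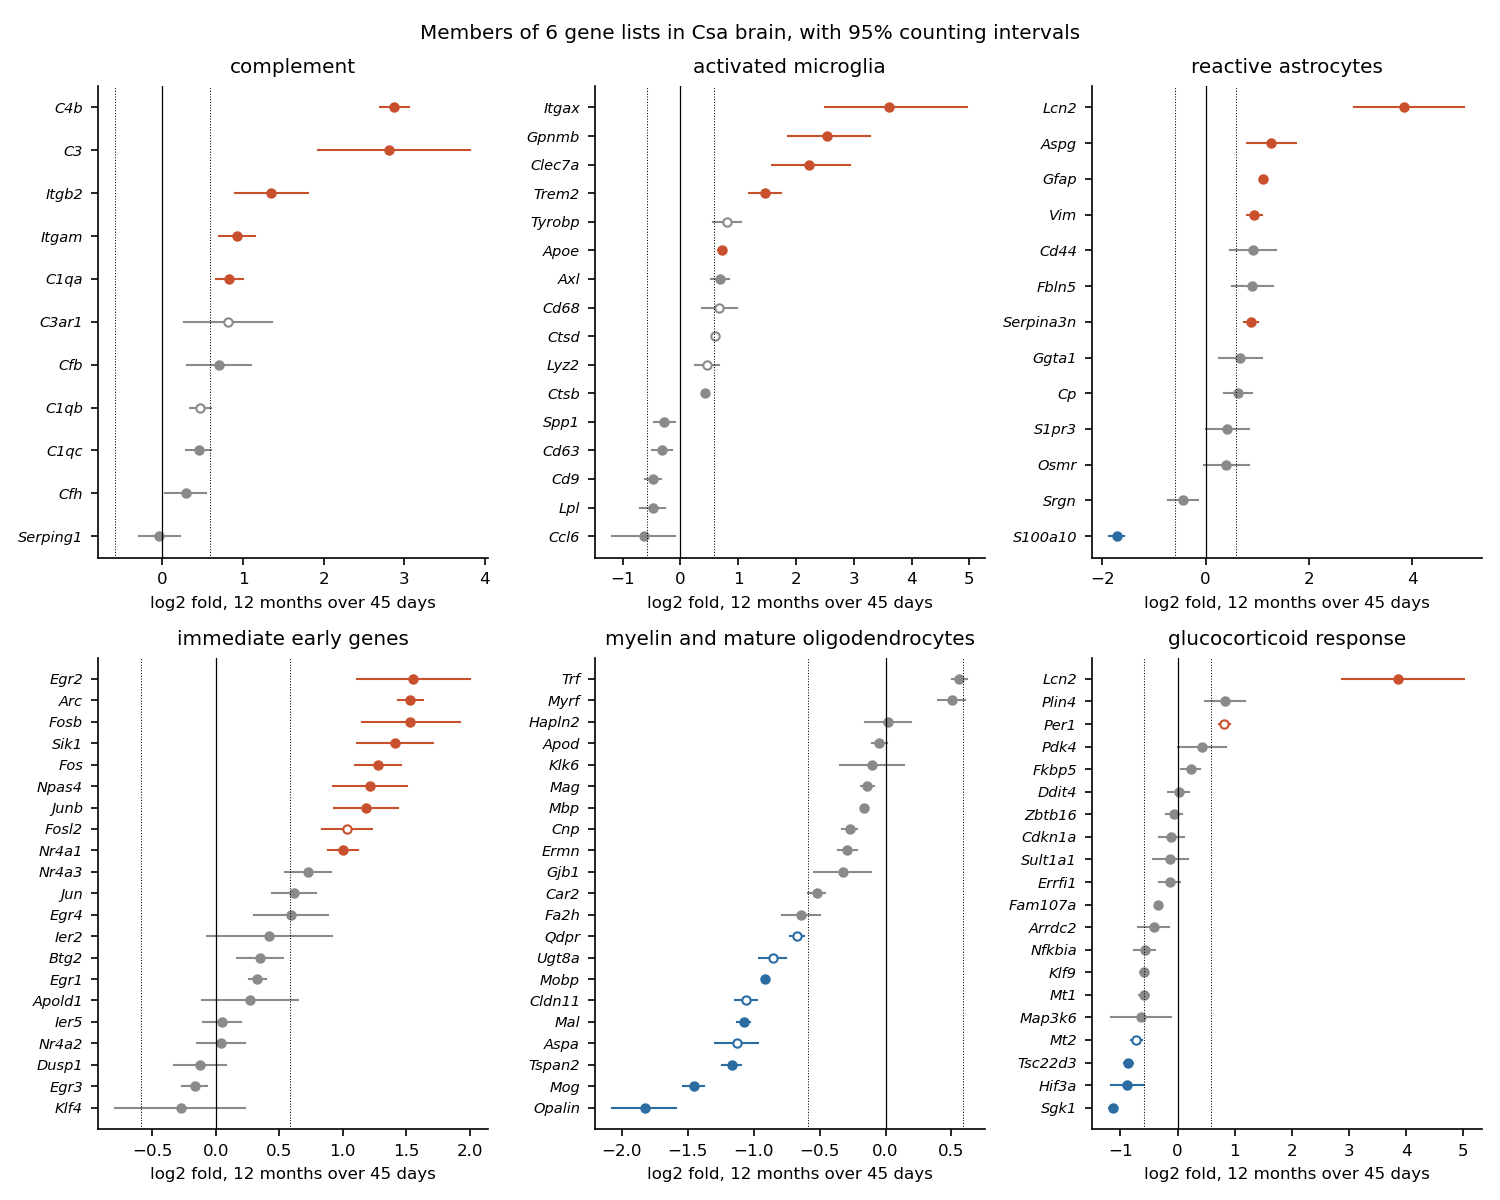
Log2 fold of 12 months over 45 days in Csa brain for the tested members of 6 gene lists, with 95% counting intervals as bars. Orange members were called higher and blue ones lower, grey ones were not called, filled points kept the same verdict with the length and GC trend removed, and dotted lines mark 1.5-fold. C4b, Itgax and Lcn2 lie farthest to the right, and Opalin and Mog farthest to the left among the myelin genes drawn.

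Genes that neurons switch on within minutes of activity, the immediate early genes, were higher at 12 months. Of 21 tested, 9 were higher and none lower (median log2 fold 0.61), and 8 were higher with the trend removed (0.58). Arc (chromosome 15, 74669083 to 74672570), which regulates receptor traffic at synapses, had 75.7, 73.4, 74.6, 75.3 and 80.1 CPM in the runs at 45 days. It had 227, 224, 216, 213 and 217 CPM in those at 12 months, a fold of 2.89 (2.70 to 3.10). The transcription factor genes Egr2 (3.96 to 11.6 CPM, 2.93-fold), Fosb (5.17 to 14.9 CPM, 2.89-fold), Fos (23.3 to 56.5 CPM, 2.42-fold) and Npas4 (9.53 to 22.1 CPM, 2.32-fold) were higher too. So were Sik1, Junb, Fosl2 and Nr4a1, at 2.00-fold to 2.65-fold. Egr1, a factor of the same class, had 215 and 270 CPM (1.25-fold) and was not called, and Egr3 and Dusp1 were not called either. The same list in WT had 13 members higher and none lower between these ages (background 2.15% higher), with Arc at 76.2 and 182 CPM and Egr1 at 132 and 453 CPM.

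Myelin genes were lower at 12 months. Oligodendrocytes wrap axons in myelin, and their major transcripts encode its structural proteins. Of 22 tested, 10 were lower and none higher (median log2 fold -0.58), and 6 were lower with the trend removed (-0.37). Mog, a surface protein of the outer sheath, had 290, 321, 313, 314 and 299 CPM in the runs at 45 days. Its runs at 12 months had 103, 114, 111, 115 and 117 CPM. The fold was 0.365 (0.344 to 0.386). Opalin, a membrane protein of mature oligodendrocytes, went from 43.7 to 12.3 CPM (0.282-fold), and Mal, a raft proteolipid, from 706 to 335 CPM (0.475-fold). Mobp (0.530-fold) and Tspan2 (0.445-fold) also remained called with the trend removed. Cldn11, Ugt8a, Qdpr and Aspa did not. Mbp, which encodes the basic protein that compacts the sheath, had 6713 and 5995 CPM (0.893-fold) and was not called, nor were Mag (0.909-fold) and Cnp (0.828-fold). Of 16 genes of precursors and new oligodendrocytes, Enpp6, a marker of cells newly forming myelin (0.427-fold), Olig1 and Lhfpl3 were lower. Tnr and Cspg4, which encode matrix and surface proteins, were higher (median log2 fold -0.09). With the trend removed the list had 1 higher and 3 lower (-0.14), and the calls of Cspg4 and Lhfpl3 did not hold. In WT 15 of the 22 myelin genes were lower (background 3.31% lower), with Mog at 217 and 106 CPM and Mal at 793 and 355 CPM.

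**Figure D3:**
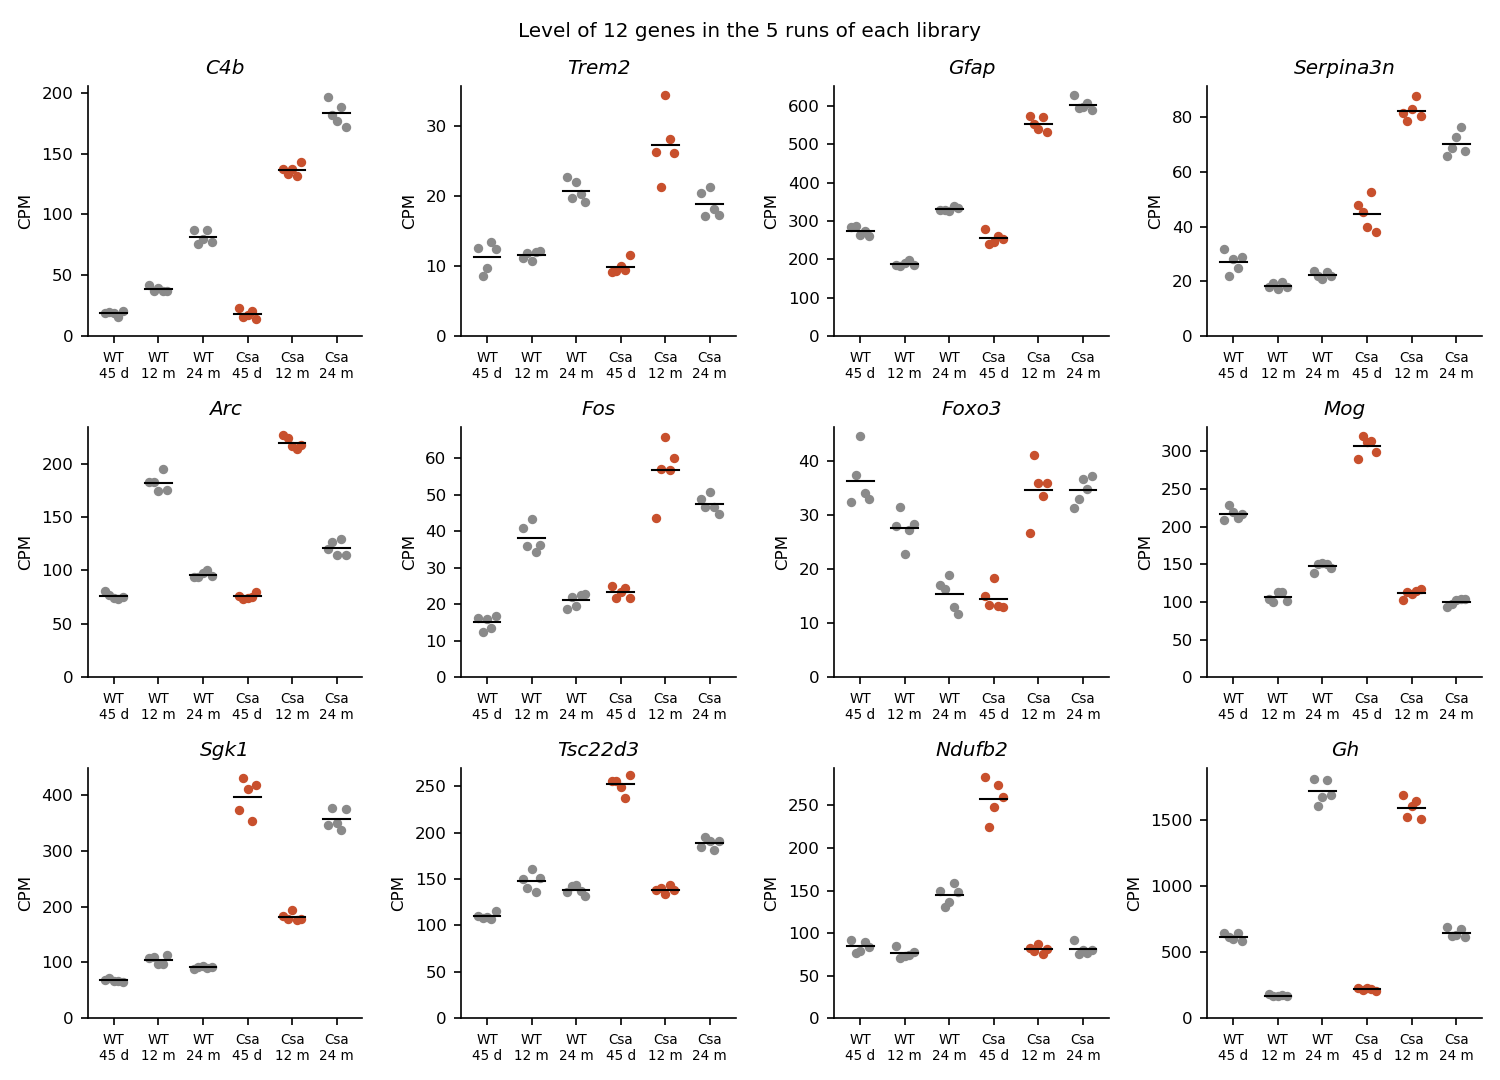
Level in CPM of 12 genes in the 5 runs of each of the 6 libraries, with the mean of the runs as a bar. The Csa runs at 45 days and 12 months are orange and all others grey. The 12 genes are a selection, and the 2 orange groups do not overlap in any of their panels. The runs of an age repeat the same library, so this gap says nothing of the spread between mice. The share of all genes with such a gap is not given.

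Several targets of glucocorticoids were lower at 12 months, from a 45-day library in which they were high. Of 20 genes tested, 4 were lower and 2 higher (median log2 fold -0.24), and 3 were lower and 1 higher with the trend removed (-0.17). Sgk1 (chromosome 10, 21882184 to 21999903), a kinase gene of the PI3K pathway induced by these hormones, had 374, 430, 410, 353 and 418 CPM in the runs at 45 days and 183, 178, 195, 175 and 177 CPM at 12 months. The fold was 0.458 (0.437 to 0.480), and the level at 24 months was 357 CPM. Tsc22d3, an anti-inflammatory leucine zipper gene, had 252 CPM at 45 days, 139 CPM at 12 months and 189 CPM at 24 months (0.550-fold between the first 2 ages). Hif3a, a brake on hypoxia signalling, had 19.3, 10.5 and 23.9 CPM at these ages (0.545-fold, a call kept in only 9 of 18 alternative settings). All 3 genes were thus lowest at 12 months. In WT they had 67.9, 110 and 3.70 CPM at 45 days and 105, 148 and 6.55 CPM at 12 months. Fkbp5, a co-chaperone of the hormone receptor, did not move with them, at 40.3 and 47.2 CPM (1.17-fold, not called). The 2 members that were higher were Lcn2 and the clock gene Per1 (98.6 to 174 CPM, 1.76-fold, not called with the trend removed). Windows of 250 bases before a start site of Sgk1 (chr10:21881934-21882183, plus strand, 1 of 6, of which 3 hold the letters) and Tsc22d3 (chrX:140600523-140600772, minus strand, the only one of 3 with a match) follow, from RefSeq on GRCm38.p6. Capitals mark TGTTCT on either strand, the hexamer from which glucocorticoid response elements are built.
Sgk1: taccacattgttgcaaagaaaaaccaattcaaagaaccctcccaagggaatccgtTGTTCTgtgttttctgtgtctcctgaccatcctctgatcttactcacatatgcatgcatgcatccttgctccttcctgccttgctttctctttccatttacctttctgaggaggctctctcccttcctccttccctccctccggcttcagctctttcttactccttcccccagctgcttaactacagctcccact
Tsc22d3: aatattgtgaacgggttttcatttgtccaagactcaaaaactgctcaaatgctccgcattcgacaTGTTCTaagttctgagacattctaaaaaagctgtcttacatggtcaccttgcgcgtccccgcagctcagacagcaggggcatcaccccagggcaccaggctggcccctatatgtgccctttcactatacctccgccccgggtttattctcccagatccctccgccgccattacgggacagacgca

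These letters lie 195 bases before the start in Sgk1 and 185 bases before it in Tsc22d3. In a promoter window of 300 bases, 21.3% of the 27025 genes and 14.4% of the 9962 tested genes hold them. Of the 19 genes of the glucocorticoid list with a window 4 hold them (21.1%), about the share of all genes. Among the 4 lower members only the 2 shown hold them. No match was found in the window of Hif3a.

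The series title names the extracellular matrix, PI3K-Akt and MAPK signalling. Among 37 matrix genes, 3 were higher and 2 lower (median log2 fold 0.26), counts near the shares over all genes tested (6.24% and 8.03%). Hspg2, the basement membrane proteoglycan perlecan, had 6.44 CPM at 45 days and 19.8 CPM at 12 months (3.07-fold, 2.43 to 3.90), and the laminin chains Lama5 and Lamb2 were each 2.21-fold higher. All 3 are long genes, and none was called with the trend removed, where the list had 1 higher and 4 lower and a median of 0.00. The fibrillar collagens went the other way under both treatments of the data. Col1a1 had 22.6, 27.1, 21.9, 23.9 and 26.5 CPM in the runs at 45 days and 9.83, 10.1, 6.88, 9.93 and 5.67 CPM at 12 months (0.347-fold, 0.281 to 0.426). Col3a1 went from 10.7 to 4.36 CPM (0.406-fold). Both were also lower in WT, at 36.6 and 9.43 CPM for Col1a1. Of 11 genes of perineuronal nets, the lattice around mature neurons, Tnr (27.0 to 79.9 CPM, 2.96-fold) and Acan (4.16 to 11.1 CPM, 2.67-fold) were higher, and only Tnr remained so with the trend removed.

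In the PI3K-Akt list 5 of 43 genes were higher and 2 lower (median log2 fold 0.32, and 0.13 with the trend removed, with 1 and 2). Foxo3 (chromosome 10, 42181841 to 42276755), a stress-response transcription factor held in check by Akt, was the higher call that remained. Its runs had 15.0, 13.3, 18.3, 13.1 and 12.9 CPM at 45 days and 26.6, 41.1, 35.9, 33.6 and 35.9 CPM at 12 months (2.37-fold, 2.02 to 2.80). Rptor, a subunit of mTOR complex 1 (1.92-fold), Pik3r2, a regulatory subunit of PI3K (1.73-fold), Tsc1 (1.71-fold) and Igf1r (1.64-fold) were called only before the trend was removed. Rheb, the small GTPase that activates mTOR, was lower along with Sgk1 (0.583-fold). In the MAPK list 2 of 41 genes were higher and 3 lower (median 0.00, and 0.09 with the trend removed). These counts are near the shares over all genes tested (6.24% and 8.03%). Nf1, a brake on Ras, had 106 and 235 CPM (2.21-fold, 2.08 to 2.34), and Rasgrf1, a calcium-dependent activator of Ras, 289 and 553 CPM (1.91-fold). The kinases Mapk11 (0.513-fold) and Araf (0.601-fold) and the GTPase Nras (0.548-fold) were lower. Of these 5, Nf1, Mapk11 and Araf were still called with the trend removed.

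Of 28 glutamatergic genes 4 were higher and none lower (median log2 fold 0.35), the scaffold Shank3 (2.07-fold), the kainate receptor Grik3 (1.85-fold) and the NMDA receptor subunits Grin1 (1.67-fold) and Grin2b (1.67-fold). None of the 28 was called with the trend removed (median 0.03). Among 24 GABAergic genes the GABA transaminase Abat was higher (1.89-fold), and Gabra6, Sst, Vip and Gabra4 were lower (median -0.06). With the trend removed none of the 24 was lower and 2 were higher, Abat and the GABA-synthesising enzyme Gad2 (median 0.01). Monoamine and acetylcholine genes were higher, with 4 of 26 (median 0.41) and 7 of 26 with the trend removed (0.40). They included the muscarinic receptor Chrm2 (3.42 to 10.7 CPM, 3.13-fold), the nicotinic receptor Chrna7 (2.14-fold) and the dopamine and noradrenaline transporters Slc6a3 (1.80-fold) and Slc6a2 (2.81-fold). The call of Slc6a3 was kept in 11 of 18 alternative settings. The inositol trisphosphate receptor Itpr1, abundant in Purkinje cells, went from 579 to 1347 CPM (2.33-fold, 2.27 to 2.38).

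Genes of oxidative phosphorylation and of ribosomal proteins, which are short, were lower at 12 months. Of 47 respiratory chain genes, 24 were lower and none higher (median log2 fold -0.74), and 10 were lower with the trend removed (-0.21). Ndufb2, a subunit of complex I, had 283, 224, 248, 274 and 260 CPM in the runs at 45 days and 82.5, 79.3, 87.3, 76.0 and 81.3 CPM at 12 months (0.314-fold, 0.294 to 0.335). In the other libraries it had 76.4 to 144 CPM, so the 45-day library stood above them all. Cox7a2 of complex IV (0.317-fold) and Atp5l of the ATP synthase (0.320-fold) were lower and remained called. Of 53 ribosomal protein genes, 19 were lower and none higher (median -0.48), and 6 were lower with the trend removed (-0.18). Rpl37a went from 16.8 to 3.95 CPM (0.235-fold), and Rpl19 from 77.0 to 29.4 CPM (0.382-fold). Genes of ribosomal proteins have many processed copies, so their counts are uncertain. Of 21 nucleotide excision repair genes only Gtf2h5, a small subunit of TFIIH, was called (0.591-fold, lost with the trend removed). Of 16 genes of the p53 response none was called, and Ercc6, the partner of Ercc8 in repair, had 33.0 and 36.5 CPM.

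**Figure D4:**
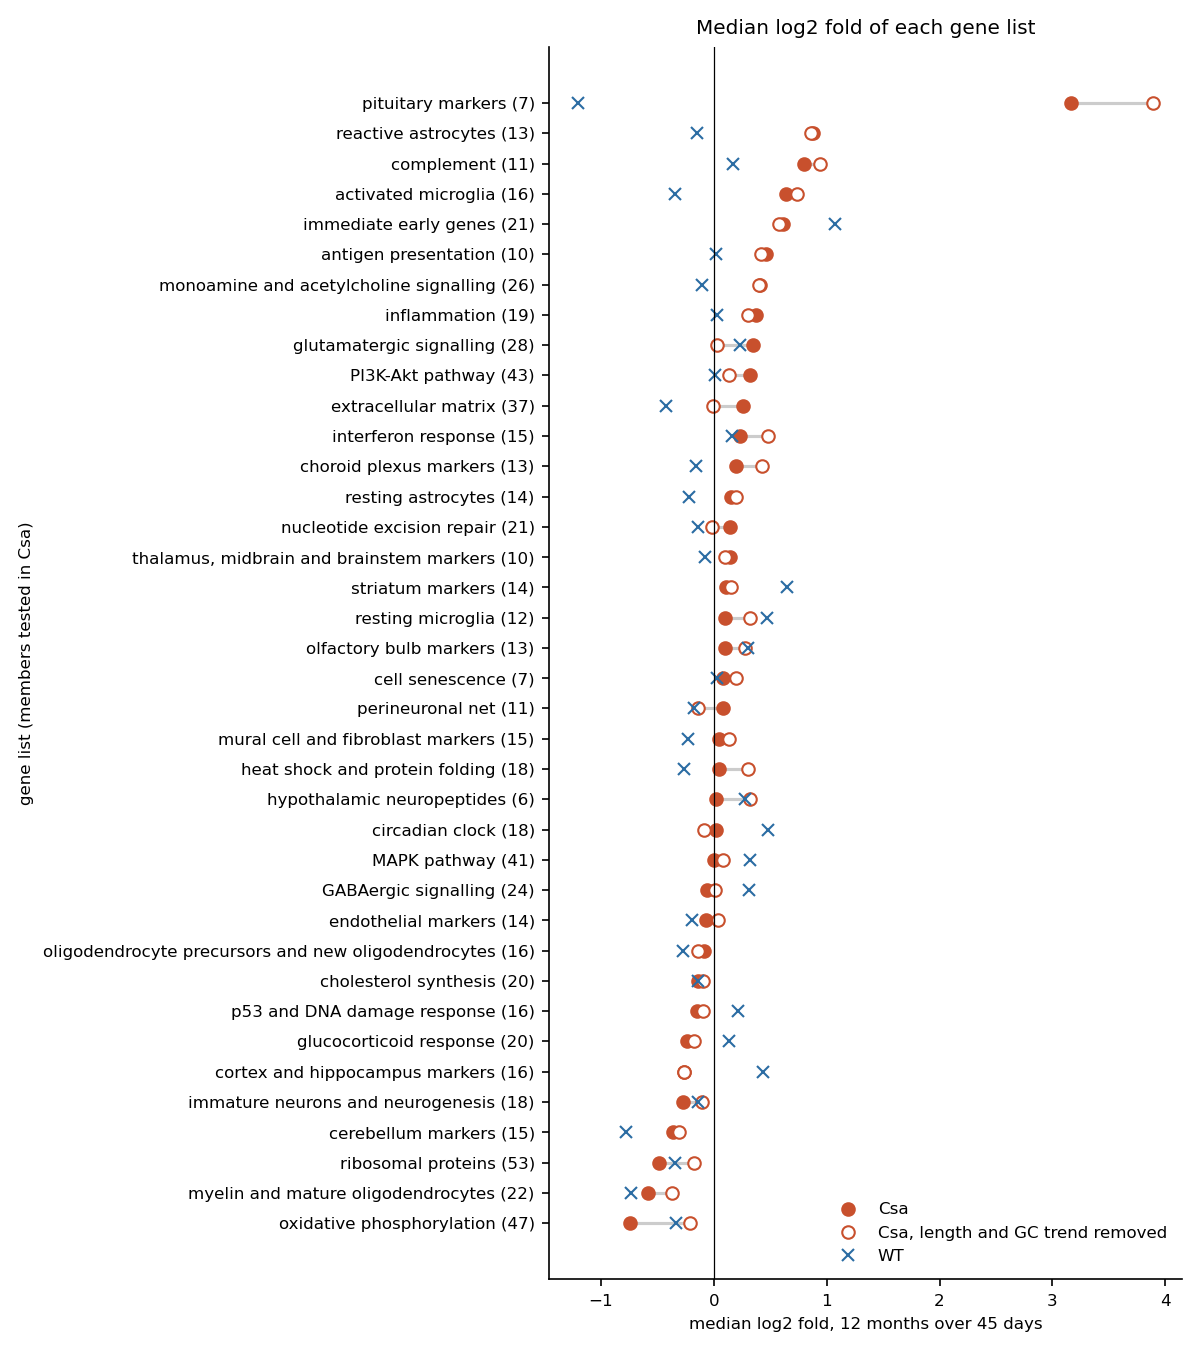
Median log2 fold of 12 months over 45 days over the tested members of each gene list, for Csa (orange, filled), Csa with the length and GC trend removed (orange, open) and WT (blue crosses), with the number of members tested in Csa in parentheses. Pituitary, astrocyte, complement and microglial lists lie to the right in Csa, and oxidative phosphorylation and myelin to the left.

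Large folds were found for genes of the pituitary and of the hindbrain and spinal cord. Of 7 pituitary markers tested, 6 were higher with and without the trend (median log2 fold 3.16, and 3.89 with it removed), and the list of 13 summed to 393 CPM at 45 days and 2119 CPM at 12 months. Gh, growth hormone (chromosome 11, 106300271 to 106301865), had 229, 213, 229, 225 and 208 CPM in the runs at 45 days and 1689, 1518, 1603, 1646 and 1505 CPM at 12 months (7.22-fold, 6.96 to 7.49). Pomc, the precursor of corticotropin, went from 2.08 to 30.7 CPM (14.7-fold), and Cga, the subunit shared by glycoprotein hormones, from 7.58 to 68.3 CPM (9.00-fold). Across all 6 libraries the pituitary sum lay between 351 and 2251 CPM, with no order by age or genotype. Hoxb8 (chromosome 11, 96281905 to 96285315), a gene that patterns the spinal cord, had no count in any run at 45 days and 8.79 CPM at 12 months, at least 43.7-fold higher against the floor of 3 counts over the library. Hoxb6 was at least 25.4-fold higher in the same way, and Hoxb5 3.07-fold. Slc6a5, the glycine transporter of brainstem and spinal neurons (4.56 to 18.5 CPM, 4.05-fold), and the glycine receptor Glra1 (2.78-fold) were higher as well. The list of thalamus, midbrain and brainstem markers as a whole had 3 of 10 higher and none lower (3 and 1 with the trend removed), a median of 0.14 and a summed level of 608 and 656 CPM.

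Markers of other regions and cell types also held calls, several of which were lost with the trend removed. A single higher call among 13 to 16 members is near the share over all genes tested. That share was 6.24% higher and 8.03% lower, and 3.12% and 3.28% with the trend removed. Cerebellar markers had 1 of 15 higher, Itpr1, and 3 lower (median log2 fold -0.37, summed level 3044 and 3039 CPM). The lower genes were Neurod1 (0.355-fold), Gabra6 (0.412-fold) and Car8 (0.529-fold), of which only Neurod1 remained with the trend removed. Cortex and hippocampus markers had 1 of 16 higher and 2 lower (median -0.27, 1871 and 1667 CPM), against 0 and 2 with the trend removed. Striatal markers had 1 of 14 higher (0.11, 933 and 1051 CPM), which was lost. Among choroid plexus markers 1 of 13 was higher, and 3 with the trend removed (455 and 591 CPM). Endothelial markers had 2 of 14 lower, and 1 with the trend removed (426 and 329 CPM). Mural and fibroblast markers had 3 of 15 lower, and 2 with the trend removed (821 and 586 CPM). Of 4 ependymal cilia markers tested 2 were higher (median 0.93, and 0.62 with the trend removed), and the list summed to 49.5 and 69.1 CPM. These were Foxj1, the regulator of motile cilia (2.04-fold), and the dynein gene Dnah11 (2.41-fold), of which Foxj1 remained with the trend removed. Of 2 blood cell markers tested, S100a8, a protein of neutrophils, was lower with and without the trend, at 8.65 and 0.681 CPM (0.0787-fold, 0.0369 to 0.149). The blood cell list had a median of -1.66 (-1.15 with the trend removed) and summed to 30.9 and 13.7 CPM, with 4 of its 13 genes at 0 at each age. The share of each region and cell type in the libraries and its part in the differences above were not tested.

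Other genes with large folds were in none of the lists. Baiap2l1, an adaptor that shapes the cell membrane, went from 1.34 to 12.3 CPM (9.14-fold, 5.74 to 15.3), with 1.07 to 15.2 CPM in the other 4 libraries. Flnc, a filamin of muscle, went from 0.872 to 5.45 CPM (6.25-fold). Among the lower genes, Trappc2, a subunit of the complex that tethers transport vesicles, had 54.9 and 11.9 CPM (0.217-fold, 0.183 to 0.256). Irak1bp1, which binds a kinase of innate signalling (0.235-fold), Svbp, which binds the enzymes that detyrosinate tubulin (0.246-fold), and Clec2d, a lectin-like ligand of lymphocyte receptors (0.251-fold), were lower too. All of these 4 had their highest level of 6 libraries at 45 days in Csa, as did 93.0% of all lower genes. All 4 remained called with the trend removed.

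A test of age was possible only over both genotypes together, with 2 libraries per age, in a model of age and genotype fitted to all 6 libraries. It asks what Csa-/- and WT share, and its residual has 2 degrees of freedom. Of 16560 genes, 6 were higher at 12 months (0.0362%) and 4 lower (0.0242%) by edgeR's quasi-likelihood test after Benjamini-Hochberg adjustment. Before adjustment, 146 higher and 256 lower genes had p under 0.05. C4b had an edgeR log2 fold change of 1.93 ± 0.40 (SE, 2 libraries per age, adjusted p = 0.0170), with 18.9 and 38.8 CPM in WT beside its Csa levels. Abca8a, a lipid transporter gene with close paralogs, had 8.32 and 33.6 CPM in Csa and 6.98 and 34.2 CPM in WT (edgeR 2.15 ± 0.39, adjusted p = 0.00247). Gpnmb (2.25 ± 0.49) and Egr2 (2.07 ± 0.45) passed as well, each with an edgeR adjusted p of 0.0299, as did Hoxb8 and S100a5. DESeq2's Wald test did not call Hoxb8 (adjusted p = 0.99997) or S100a5 (adjusted p = 0.228). Hoxb8 was low in WT, with runs of 0 to 0.534 CPM at 45 days and 0.497 to 1.31 CPM at 12 months. The lower genes were 9630013A20Rik, Cyp3a11, Alb and S100a8. DESeq2's Wald test did not call Alb (adjusted p = 0.99997) or S100a8 (adjusted p = 0.265) either, and kept 6 of the 10 genes. The test of limma-voom also kept 6. It did not call Gpnmb (adjusted p = 0.288), Egr2 (0.137), S100a5 (0.275) or S100a8 (0.366). 9630013A20Rik, named after its values were seen, had 15.2 and 0.477 CPM in Csa and was lower in WT as well (edgeR adjusted p = 0.000305). Alb and Cyp3a11 are genes of liver, and Alb had 6.04 and 1.98 CPM in Csa against 25.1 and 0.373 CPM in WT. Removing the trend with length and GC left 0 genes called by edgeR, with 424 at an unadjusted p under 0.05, and Abca8a came nearest among these 10 (edgeR adjusted p = 0.0905). The count also rested on single libraries: edgeR called 2 genes without Csa at 12 months, 3 without Csa at 45 days and 25 without either library of 24 months.

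Without removal of the length and GC trend, the age differences of Csa and WT had little in common across genes. Over 12159 genes tested in both, the log2 folds had a Pearson correlation of -0.08 and a Spearman correlation of -0.10, given as a description since genes are not independent and each genotype has 1 library per age. The GC trend was opposed between the genotypes. From the poorest to the richest quartile the median log2 fold went from -0.26 to 0.20 in Csa and from 0.26 to -0.21 in WT. From the shortest to the longest quartile it rose in both genotypes, from -0.30 to 0.26 in Csa and from -0.16 to 0.13 in WT. The part of these trends in the correlation and overlaps was not tested. Of the genes called higher in Csa, 22 (3.01%) were also higher in WT, which is 8.49% of those higher in WT. For lower genes the overlap was 38 (3.93% of Csa and 9.74% of WT). Over all genes tested in each genotype, 2.15% were higher and 3.31% lower in WT, and 6.24% and 8.03% in Csa. In opposite directions, 25 genes higher in Csa (3.42%) were lower in WT, and 26 lower in Csa (2.69%) were higher in WT. The difference between the genotypes was measured for each gene as the ratio of the Csa fold to the WT fold, with a 95% counting interval from the 4 libraries and a bound of 1.5. Of 12705 genes the Csa change lay above that of WT in 1285 (10.1%) and below it in 1457 (11.5%). With the length and GC trend removed these counts were 702 and 710.

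Glial genes were among those whose age difference was larger in Csa. The ratio was 3.13 for Gfap (2.96 to 3.31), which had 274 and 189 CPM in WT, and 3.58 for C4b (3.01 to 4.27). For Trem2 it was 2.71 (2.08 to 3.52), with 11.5 and 11.6 CPM in WT, and for Clec7a 5.29 (2.47 to 11.3). In all, 7 of 16 activated microglial genes, 6 of 14 reactive astrocyte genes and 3 of 11 complement genes lay above WT, and 1, 1 and 0 below. Myelin genes gave no such pattern, with 2 of 22 above and 1 below, and the ratio of Mog was 0.744 (0.688 to 0.803), not beyond the 1.5-fold bound. Immediate early genes had none above and 6 of 21 below, among them Egr1 (0.367, 0.344 to 0.391) and Nr4a1 (0.560), while Arc lay within the bound (1.21, 1.10 to 1.32). Sgk1 (0.296, 0.273 to 0.321), Hif3a (0.309) and Tsc22d3 (0.409) lay below WT. Of the matrix genes 19 lay above WT and none below, a list in which the Csa library at 45 days was low and 8 genes were lower with age in WT. No library was replicated, so whether other mice would show these differences was not tested.

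**Figure D5:**
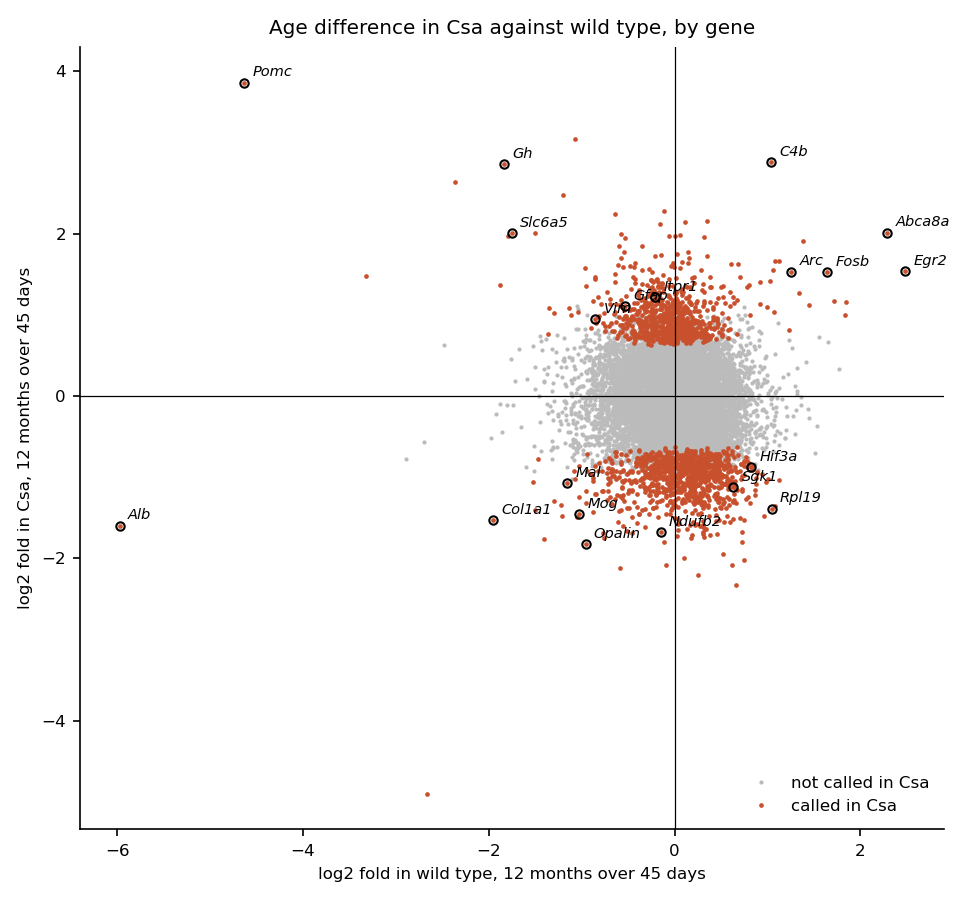
Log2 fold of 12 months over 45 days in Csa (vertical axis) against that in WT (horizontal axis), 1 point per gene tested in both, orange where called in Csa, with 20 genes named. C4b, Abca8a and Egr2 lie high in both, Gh and Pomc lie high in Csa and low in WT, and the cloud as a whole has no slope (Pearson -0.08). The length and GC trend was not removed from either axis.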

How the data were processed

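RNA from whole mouse brain was enriched for poly(A), made into libraries with a SOLiD kit and sequenced, per the labels' protocols. The deposited table holds raw counts per gene in 30 columns, and per the submitters' processing notes the authors used HISAT2 2.2.1, Subread 2.0.1, Trimmomatic 0.3.9 and SAMtools with the build mm10. The role and settings of each tool, the use of strand and the annotation were not given in the sources used here, so reads of overlapping antisense genes cannot be told apart.

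The 5 columns of a group were summed because the median chi-square of their counts (genes with a mean of at least 10 counts) was below 2 per degree of freedom. TMM factors came from the 16560 genes passing filterByExpr over 6 libraries (edgeR 4.0.16, R 4.3.3). Medians use log2 folds with 0.5 added to each count. The ratio to WT used a normal interval on the log scale. Exonic length and GC content came from GENCODE M21 for 12390 of 12563 tested genes (98.6%), and the trend was a spline with 5 degrees of freedom in each. The age test was edgeR's quasi-likelihood test, with a common biological coefficient of variation of 0.278 and prior degrees of freedom of 77.2. Intervals, calls and the trend fit were tested on simulated data.

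Named genes were Ercc8, Sgk1, the largest folds called in each direction, the largest called members of each of 43 lists, the largest ratios to WT and the smallest p in the age term, without pseudogenes and without gene models that have only an identifier. Other list members are given where a group needs them. Members and lists were chosen with earlier results of these data known.

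Alternatives were DESeq2 1.42.0 (size factors and test), limma-voom 3.58.1, library totals, other filters and bounds, each run or library left out, and the 10 runs as if replicates. A member of the myelin list is counted with its list and is not reported here by itself.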

Additional observations from a re-analysis of the deposited data

Results flagged for a closer look

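These 13 are the named genes called in opposite directions between 45 days and 12 months in Csa and in WT. Over all 12159 genes tested in both, 25 were higher in Csa and lower in WT, and 26 the reverse. Each value is the ratio of the Csa fold to the WT fold. The differences between genotypes were not tested, since each rests on 1 library per age and genotype. Hormone genes of the pituitary had ratios of 360 for Pomc, 25.8 for Gh, 18.8 for Cga and 12.8 for Prl. Genes of brainstem and spinal cord transmission had 27.7 for Slc6a2, 13.6 for Slc6a5 and 5.03 for Glra1. Foxj1, the regulator of motile cilia, had 4.99, Vim 3.49 and Mir6236 32.2. Ratios below 1 were found for Rpl19 (0.185), Pmch, a hypothalamic peptide gene (0.246), and Synpr, a synaptic vesicle gene (0.336).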

How the results depend on the processing

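A 2-fold bound left 159 genes higher and 188 lower, and 390 above and 475 below the WT change. With the length and GC trend removed these counts were 386, 407, 702 and 710. Of 142 named genes called, 76 were still called under the 2-fold bound, 100 with the trend removed, 115 at 10 CPM or more and 135 to 142 under the other settings, and none turned. The age term called 6 genes at a mean of at least 5 CPM, 6 with limma-voom, 26 in the 4 libraries of these ages and 0 with the trend removed. Leaving out 1 library gave 2 to 25 genes: 2 without Csa at 12 months, 3 without Csa at 45 days, and 25 without either library of 24 months. The cause was not tested. Same-numbered runs of the 2 ages correlated weakly, at 0.0537 to 0.147, and 3 of 5 matched best with their own number. Whether the run numbers pair the columns was not tested further. edgeR on the 10 runs as if they were replicates called 1563 higher and 1866 lower without a replicate block and 1571 and 1872 with it, and its spread is technical. Depth limits genes near the floor of 3 counts, and 1 library per age limits all others.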
